A study of Homo sapiens with 12 samples.

Results

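The genes described here act in the Fanconi pathway of DNA interstrand crosslink repair, in homologous recombination and in the ATR, ATM and CHEK1 checkpoints. They were chosen by gene symbol, as a list of 36 symbols among 44786 in the deposited table, and each was represented by the row of its symbol with the most normalized reads on average. All 36 had a row in the table. Of these, 27 reached 10 normalized reads in 3 or more libraries and were tested together with all other transcripts (9064 in total), and 9 did not (FANCC, FANCL, FANCM, PALB2, XRCC1, BARD1, RBBP8, NBN and EXO1).

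The Fanconi core complex places a single ubiquitin on the pair FANCD2 and FANCI when a replication fork meets a crosslink. The marked pair recruits nucleases, after which BRCA1, BRCA2, PALB2 and their partners repair the broken strand with the sister chromatid as template. Stalled forks are sensed by ATR with its partner ATRIP, and the signal passes through TOPBP1 and CLSPN to the kinase CHEK1, which holds back entry into mitosis, whereas ATM and CHEK2 respond mainly to double-strand breaks. Decitabine (DAC) is a cytosine analogue that, once built into DNA, traps DNA methyltransferases on it, and such protein crosslinks are among the lesions that SPRTN, PARP1 and homologous recombination help to remove. Many of these genes are expressed most in S phase, under the control of E2F factors.

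The libraries were made from U937, a human myelomonocytic leukemia cell line. The 4 groups, of 3 libraries each, were untreated cells, cells given DAC (200 nM, with daily renewal), cells given all-trans retinoic acid (ATRA, 1 µM), the ligand of the retinoic acid receptors, and cells given DAC+ATRA at the same doses. According to the methods, ATRA was added with the third daily dose of DAC and the cells were harvested at 72 h, while the labels give 96 h for the untreated cells and 3 days of treatment with no later start for ATRA, so the length of ATRA exposure is uncertain. All cultures shared the cell line and, per the labels, a medium with fetal calf serum and GM-CSF. The series describes the triplicates as technical, so every p-value measures the spread between these libraries only, and the untreated libraries may differ from the others in time in culture as well as in treatment. The cells are a mixed bulk population, in which fewer cells in a given state and less RNA per cell cannot be told apart.

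Between 8042435 and 10683593 reads were counted per library, and mitochondrial transcripts took 40.6% to 42.5% of them untreated, 37.0% to 40.4% with DAC, 38.9% to 41.1% under ATRA and 36.3% to 38.3% under the combination. Every library with DAC was thus below every untreated one, and the part of this in the results was not tested. A count of 3 reads corresponded to 2.50 to 3.71 normalized reads, so that CHEK1, with 2 to 19 reads per library, was measured much less precisely than PARP1, with 4685 to 9838. Of 10 markers of other cell types, 7 stayed under 10 normalized reads in every library, among them 3 at 0 throughout.

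Promoters were taken from RefSeq (build GRCh38.p14, 250 bases before to 50 after the start) for 33 of the 36 genes. FANCI, NBN and WRN had no entry. A perfect match to one of 4 E2F words (TTTGGCGC, TTTCCCGC, TTTGCCGC and TTTCGCGC, searched on both strands) was present in 7 of the 33 promoters (21.2%), against 3.33% of all 27305 promoters in the collection and 5.07% of the 5877 promoters of symbols tested. To show the word where it was found, the promoters of XRCC2 (chr7:152676092-152676391, minus strand) and CLSPN (chr1:35769929-35770228, minus strand), which fell with DAC+ATRA, are given with those of FANCD2 (chr3:10026187-10026486, plus strand) and TOPBP1 (chr3:133661892-133662191, minus strand). TOPBP1 did not pass there, and FANCD2 passed as a sum over its rows and not by the row read. The match is in capitals. The capitals read GCGGGAAA or GCGCGAAA because each match lay on the other strand.
XRCC2: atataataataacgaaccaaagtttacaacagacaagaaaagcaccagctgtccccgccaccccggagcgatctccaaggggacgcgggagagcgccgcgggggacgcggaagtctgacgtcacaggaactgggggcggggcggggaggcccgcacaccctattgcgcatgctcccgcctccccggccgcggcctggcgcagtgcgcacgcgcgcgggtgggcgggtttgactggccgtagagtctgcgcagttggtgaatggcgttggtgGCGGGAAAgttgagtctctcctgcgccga
CLSPN: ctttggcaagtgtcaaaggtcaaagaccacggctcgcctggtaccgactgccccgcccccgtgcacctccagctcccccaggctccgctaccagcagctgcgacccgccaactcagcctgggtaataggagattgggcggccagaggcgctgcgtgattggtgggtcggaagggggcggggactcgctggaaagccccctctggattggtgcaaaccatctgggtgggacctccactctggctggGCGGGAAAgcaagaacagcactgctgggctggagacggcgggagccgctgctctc
FANCD2: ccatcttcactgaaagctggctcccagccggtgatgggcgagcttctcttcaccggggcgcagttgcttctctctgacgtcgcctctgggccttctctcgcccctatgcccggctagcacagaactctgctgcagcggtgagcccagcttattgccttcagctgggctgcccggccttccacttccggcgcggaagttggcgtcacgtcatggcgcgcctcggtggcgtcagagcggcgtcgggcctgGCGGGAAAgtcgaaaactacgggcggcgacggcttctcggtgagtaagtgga
TOPBP1: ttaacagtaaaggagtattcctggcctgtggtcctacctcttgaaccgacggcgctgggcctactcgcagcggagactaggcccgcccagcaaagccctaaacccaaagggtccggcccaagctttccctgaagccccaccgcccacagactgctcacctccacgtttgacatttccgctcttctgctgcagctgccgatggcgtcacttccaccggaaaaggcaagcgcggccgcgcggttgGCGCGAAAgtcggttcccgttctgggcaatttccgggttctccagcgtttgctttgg

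For 7 of the 33 genes (BRCA1, CHEK2, EXO1, FANCG, FANCM, RAD51B and XRCC2) the measured row starts more than 500 bases from the RefSeq start, 12137 bases downstream of it for XRCC2, and the rows of FANCD2 and CHEK1 have no coordinates here, so these windows are not known to belong to the transcript measured. By response, the E2F words were found in 2 of 13 promoters of genes lower with DAC+ATRA, in 3 of 12 of genes that were tested and not past the threshold (FANCA beside the 2 printed), and in 2 of 8 of genes that were not tested (EXO1 and FANCC). These groups depend on the row read, since FANCD2, BLM and FANCM were lower with DAC+ATRA when all rows of a symbol were summed. Among the 24 genes whose row starts within 500 bases of the RefSeq start, the counts were 1 of 9, 2 of 9 and 1 of 6. The cell cycle word TTTGAA, searched on both strands, occurred in 15.2% of the 33 promoters, in 15.4% of all promoters and in 10.2% of those of symbols tested. The promoters held a median of 29 CpGs, against 14 in all promoters and 26 in those of symbols tested. A match is a string of letters and says nothing about binding in these cells.

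DAC lowered 9 of the 27 tested genes and raised none, at an adjusted p under 0.01 in the limma fit over all transcripts. Of all transcripts tested, 8.77% were lower and 30.5% higher with DAC, so the genes stood at 33.3% lower against a background that moved mainly upward. The genes that fell were CHEK1, XRCC2, BRIP1, FANCI, CLSPN, BLM, XRCC3, ATR and RAD51D. The median log2 fold change over the 27 was -0.46, against 0.22 over all transcripts tested. With DAC+ATRA, 14 of the 27 fell (51.9%) and none rose, while 14.3% of all transcripts were lower and 32.4% higher, and the medians were -0.62 and 0.20. FANCE, FANCG, BRCA1, BRCA2, ATRIP and PARP1 were among these 14 and not among the 9, and BLM was among the 9 only. This split depends on the row read, since with all rows of a symbol summed FANCG (-0.74, limma adjusted p = 0.0019) and BRCA1 (-0.74, 0.0017) passed with DAC and BLM (-0.73, 0.0013) passed with DAC+ATRA. The comparisons with untreated cells share the same 3 untreated libraries. The 14 became 9 without untreated library 2 or 3, and the 9 with DAC became 6 without untreated library 2 or DAC library 6.

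ATRA alone left no gene of the list past the threshold, where 6.42% of all transcripts were higher and 2.66% lower. The log2 fold changes ran from -0.47 (ATRIP) to 0.53 (RAD51B), with a median of 0.07 against 0.00 over all transcripts. At an unadjusted p under 0.05 the limma fit held 2 genes (7.41%, against 26.0% of all transcripts), XRCC2 (-0.34, adjusted p = 0.058) and FANCA (0.29, adjusted p = 0.17). Both edgeR with TMM and DESeq2 gave 0 as well.

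**Figure D1:**
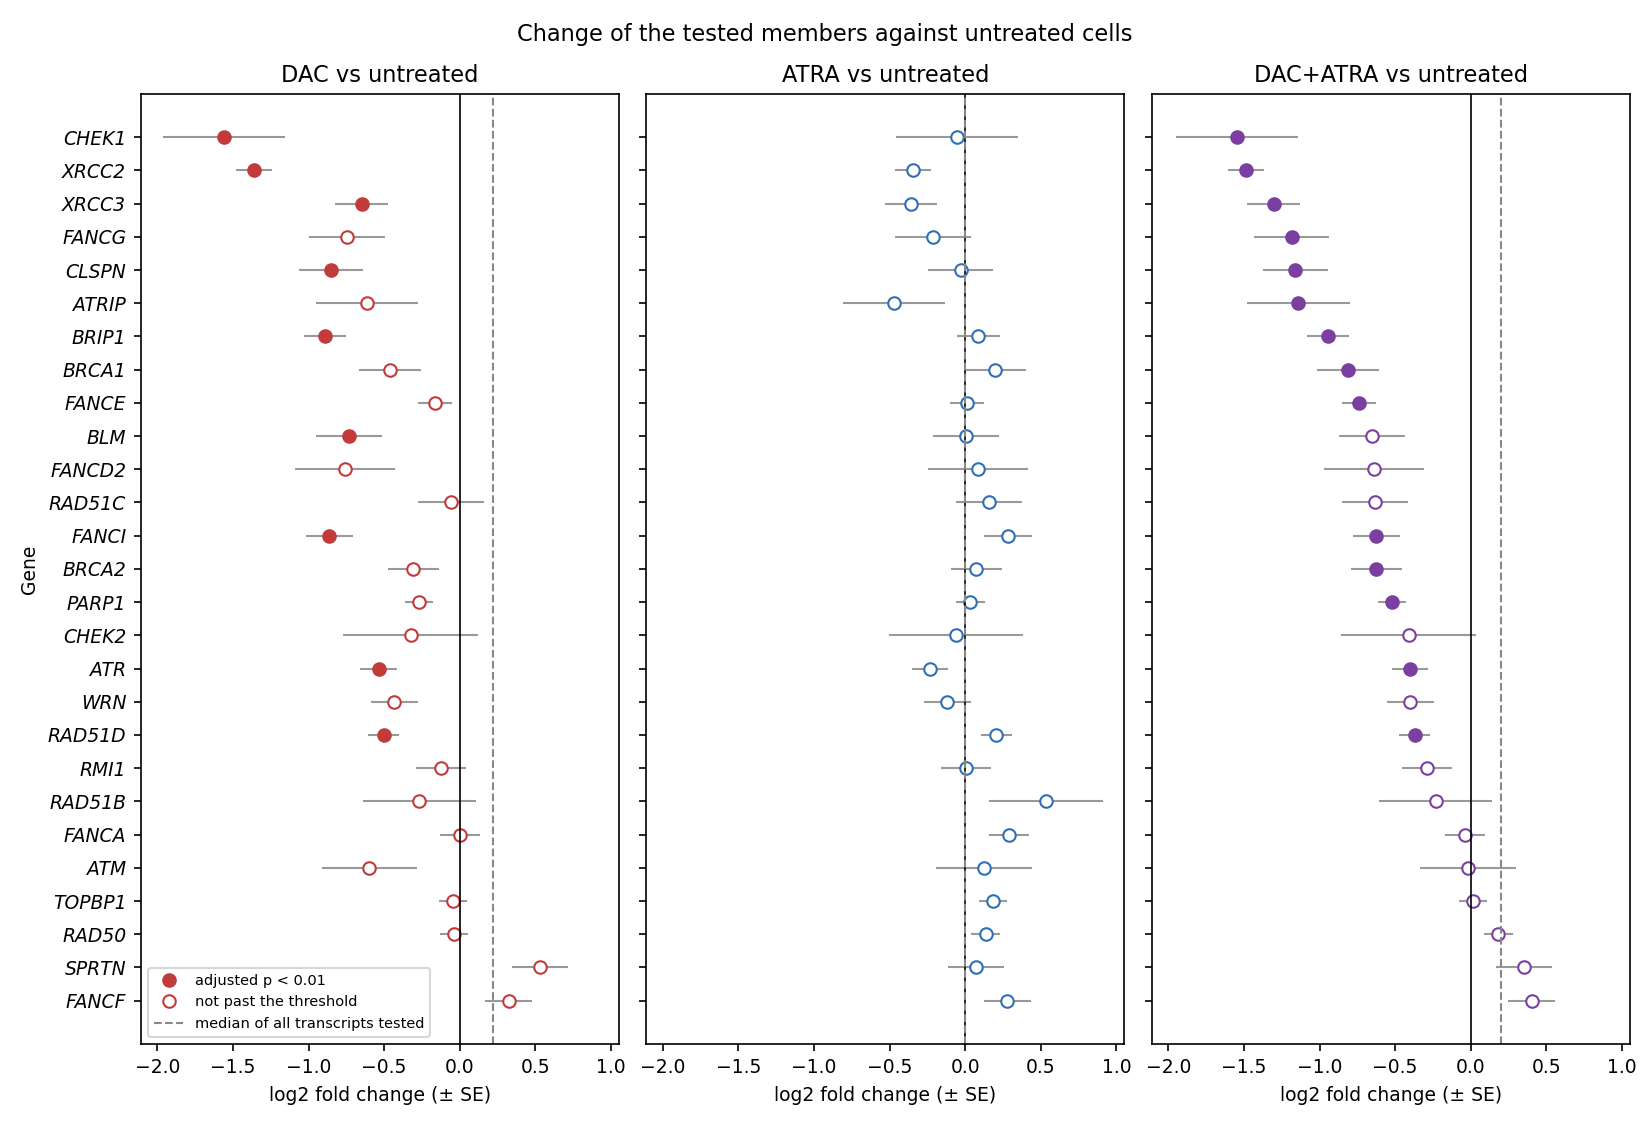
Log2 fold change (x axis, with SE) of the 27 tested genes (y axis) with DAC, ATRA and DAC+ATRA against untreated cells, from the limma fit over 12 libraries, where filled points passed an adjusted p of 0.01 and the dashed line is the median of all transcripts tested. The filled points, 9 with DAC and 14 with DAC+ATRA, all lie left of 0, the ATRA panel has none, and SPRTN and FANCF lie to the right with open points.

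The scaling of the libraries bears on these counts. The deposited size factors left the median of all transcripts at 0.22 with DAC, whereas TMM scaling of the recovered reads left it at 0.02. With edgeR and TMM, 14 of the 27 fell with DAC against 17.7% of all transcripts, and 17 fell with DAC+ATRA against 20.4%, again with none higher. The 9 and the 14 genes above were all among them. TOPBP1, at -0.04 with DAC in the limma fit, was one of the 5 genes gained with DAC, beside FANCE, FANCG, PARP1 and WRN. TOPBP1 also passed with DESeq2 (-0.22, adjusted p = 0.0036) and in limma on TMM-scaled reads (-0.25, adjusted p = 0.0024), and not in limma on reads scaled by library total (-0.17, adjusted p = 0.027).

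Levels within the untreated and treated cells differed widely between genes. Per kilobase of transcript, averaged over the 12 libraries, PARP1 was highest with 1806 normalized reads, followed by FANCE with 672, TOPBP1 with 465 and RAD50 with 94.9. At the other end stood NBN, a subunit of the break-sensing complex with RAD50 and MRE11, with 0.967 for its row, next to FANCM with 0.969. FANCD2 and CHEK1, whose rows are not in GENCODE 44, have no length here. Each value is that of 1 row over its full length. The rows differ in the bases that no other transcript covers (all 2576 for FANCE, 1470 of 3978 for PARP1, 61 of 4728 for XRCC2). The counting mode is not known, so the order of the rows need not be the order of expression of the genes. The NBN row is a retained intron transcript at chr8:89933606-89940679 that holds 38.1% of the reads of the symbol. Its normalized counts were 6.43, 3.64 and 8.31 untreated, 5.40, 2.92 and 0.996 with DAC, 6.34, 1.82 and 7.49 under ATRA, and 6.33, 7.37 and 8.65 under the combination. These groups overlapped, except that all 3 DAC libraries lay below the 3 DAC+ATRA libraries, and NBN was too low to be tested.

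In the Fanconi core complex, FANCE fell with DAC+ATRA. FANCE links the core complex to FANCD2, and its transcript (chr6:35452338-35467102, plus strand) is protein-coding. Normalized counts were 1941, 2075 and 1896 in untreated libraries, 1967, 1559.7 and 1773 with DAC, 2171, 2175 and 1657 under ATRA, and 1174, 1217 and 1152 under the combination. All 3 libraries with the combination lay below the other 9. The mean was 1181 ± 33.1 (SD, n = 3) with DAC+ATRA, 59.9% of the untreated mean of 1971 ± 93.4 (log2 fold change -0.74, SE 0.11, limma adjusted p = 1.0e-05). With DAC the log2 fold change was -0.16 (adjusted p = 0.23) under the deposited scaling, and it passed with edgeR and TMM (-0.36, adjusted p = 0.0011), with DESeq2 (-0.33, 0.0016) and in limma with scaling by TMM (-0.37, 0.0016) or library total (-0.29, 0.0074).

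FANCG, an adaptor of the core complex, was read from a retained intron transcript (chr9:35076141-35076852, minus strand). Its 291 bases covered by no other transcript all lay outside protein-coding exons. The counts were 44.1, 77.4 and 66.5 untreated, 31.3, 33.1 and 44.8 with DAC, 41.2, 46.4 and 75.7 under ATRA, and 24.4, 27.4 and 27.2 under the combination. The DAC+ATRA libraries lay below all others, while DAC and untreated overlapped in 1 library each. The log2 fold change was -1.18 with DAC+ATRA (SE 0.25, limma adjusted p = 0.00040) and -0.75 with DAC (adjusted p = 0.017).

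The other core complex genes that could be tested did not pass. FANCA, a scaffold subunit, had a log2 fold change of 0.00 with DAC and -0.04 with DAC+ATRA. FANCF, a flexible adaptor whose gene has a single exon, had 0.32 and 0.40 (limma adjusted p = 0.085 and 0.030). The ubiquitin ligase FANCL and the anchor FANCM were among the genes too low to test, with at most 9.10 and 8.27 normalized reads in any library, and so was FANCC, with at most 16.9. The FANCL row is a retained intron transcript.

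Of the monoubiquitinated pair, FANCI fell with DAC and with DAC+ATRA. The counts were 267, 261 and 295 untreated, 147, 167 and 138 with DAC, 354, 248 and 424 under ATRA, and 188, 171 and 174 under the combination. The 6 libraries that had received DAC lay below the 6 that had not. The log2 fold change was -0.86 with DAC (SE 0.16, limma adjusted p = 0.00010) and -0.62 with DAC+ATRA (SE 0.16, adjusted p = 0.0019, and 0.012 without untreated library 3). The row is a retained intron transcript (chr15:89278687-89317128, plus strand), whose 1157 bases of its own are outside protein-coding exons. The protein-coding transcript with the most reads was much lower, at 13.5 ± 0.461 untreated, 7.78 ± 0.201 with DAC, 9.83 ± 5.98 under ATRA and 4.05 ± 2.81 under the combination, and for it the log2 fold change was -0.72 with DAC (adjusted p = 0.19) and -1.73 with DAC+ATRA (adjusted p = 0.0029).

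FANCD2 had 19.6 ± 1.25 normalized reads untreated, 11.7 ± 5.04 with DAC, 21.1 ± 4.34 under ATRA and 12.8 ± 4.73 under the combination. The log2 fold changes of -0.76 with DAC and -0.64 with DAC+ATRA did not pass (limma adjusted p = 0.060 and 0.10). That row holds 32.4% of the reads of the symbol. Summed over its 13 rows, FANCD2 went from 72.2 ± 6.36 to 31.4 ± 6.80 with DAC and 31.3 ± 5.84 with DAC+ATRA, and the log2 fold change was -1.19 in both (limma adjusted p = 3.6e-05 and 2.8e-05).

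Among the homologous recombination genes, 4 of 8 tested fell with DAC (against 8.77% of all transcripts) and 6 of 8 with DAC+ATRA (against 14.3%). XRCC2, which acts in homologous recombination, had the largest fall in proportion to its error. The counts were 574, 607 and 578 untreated, 261, 227 and 199 with DAC, 444, 429.7 and 517 under ATRA, and 206, 211 and 209 under the combination. The libraries with DAC lay below all others, and the ATRA libraries lay between them and the untreated ones. DAC left 39.0% of the untreated mean (log2 fold change -1.36, SE 0.12, limma adjusted p = 5.2e-09) and DAC+ATRA 35.5% (-1.49, SE 0.12, adjusted p = 9.9e-10). The row (chr7:152644779-152664004, minus strand) is annotated without a coding sequence. The protein-coding row of XRCC2 held 11.6 ± 2.71 normalized reads untreated and 4.02 ± 1.89 with DAC+ATRA, with a log2 fold change of -0.56 with DAC (adjusted p = 0.20) and -1.37 with DAC+ATRA (adjusted p = 0.0025).

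BRIP1, a helicase that binds BRCA1, was read from its protein-coding transcript (chr17:61679139-61863528, minus strand). It had 595, 609.9 and 559.7 normalized reads untreated, 363, 335 and 261 with DAC, 634, 624 and 615 under ATRA, and 284, 260.0 and 384 under the combination. The 6 libraries with DAC did not overlap the 6 without. The means with DAC and DAC+ATRA were 54.4% and 52.6% of untreated, or log2 fold changes of -0.89 and -0.94 (SE 0.14 each, limma adjusted p = 1.9e-05 and 7.1e-06).

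BRCA1, the ubiquitin ligase subunit that directs breaks toward recombination, fell with DAC+ATRA. From the protein-coding transcript at chr17:43044304-43125364 (minus strand), the counts were 47.8, 44.6 and 41.6 untreated, 30.3, 28.3 and 38.8 with DAC, 60.2, 50.1 and 44.9 under ATRA, and 25.3, 26.3 and 23.5 under the combination. The combination was lowest in every library, and DAC also lay below untreated in every library. The log2 fold change was -0.81 with DAC+ATRA (SE 0.21, limma adjusted p = 0.0021, and 0.011 without untreated library 1) and -0.46 with DAC (adjusted p = 0.068), where the sum over rows passed, as given above.

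XRCC3, which acts in homologous recombination as well, had 162, 178 and 146 normalized reads untreated, 129.7, 84.8 and 97.6 with DAC, 135, 130.2 and 112 under ATRA, and 74.1, 53.7 and 68.0 under the combination. DAC+ATRA was below every other library. The log2 fold change was -1.30 with DAC+ATRA (SE 0.17, limma adjusted p = 1.8e-06) and -0.65 with DAC (SE 0.17, adjusted p = 0.0038), where the call was lost without untreated library 1 or 2 or DAC library 5 or 6 (adjusted p up to 0.028). The value is uncertain, since the row is a transcript marked for nonsense-mediated decay (chr14:103704396-103715483, minus strand) whose 1772 bases of its own overlap exons on the other strand, and the strand setting of the counting is not given in the sources used here. The protein-coding row gave -0.87 with DAC (adjusted p = 0.034) and -1.14 with DAC+ATRA (adjusted p = 0.0060).

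RAD51D and BRCA2 fell less. RAD51D, of the same complex as XRCC2, fell by 0.50 on the log2 scale with DAC and by 0.37 with DAC+ATRA (limma adjusted p = 0.00034 and 0.0040). The call with DAC+ATRA was lost when any 1 of the 6 libraries compared was left out (adjusted p up to 0.016) and without the filter on low values. BRCA2, a mediator of homologous recombination, fell by 0.62 with DAC+ATRA (adjusted p = 0.0037, and up to 0.028 without untreated library 2 or DAC+ATRA library 11, and also not past without the filter on low values), and its change of -0.31 with DAC did not pass (adjusted p = 0.14). RAD51C had -0.06 with DAC and -0.63 with DAC+ATRA (adjusted p = 0.018), and RAD51B, at 3.98 to 15.0 normalized reads per library, had -0.27 and -0.23. PALB2 and BARD1, the partners of BRCA2 and BRCA1, were too low to test, BARD1 in a retained intron row.

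The end resection genes gave 1 testable member. RAD50, the coiled-coil ATPase of the break-sensing complex, had 747 ± 45.0 normalized reads untreated, 726 ± 14.3 with DAC, 819 ± 33.5 under ATRA and 847 ± 31.0 under the combination, and no comparison with untreated cells passed (log2 fold changes -0.04, 0.13 and 0.18). RBBP8, which starts resection, and the exonuclease EXO1 were too low to test, with at most 8.19 and 13.7 normalized reads in any library. The EXO1 row is annotated without a coding sequence.

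The checkpoint genes divided. CHEK1 had the most negative log2 fold change of all 27 genes with DAC, -1.56 (SE 0.40, limma adjusted p = 0.0029), and with DAC+ATRA, -1.55 (SE 0.40, adjusted p = 0.0027). Either call was lost without untreated library 2 or 3, the former also without DAC library 4 and the latter without DAC+ATRA library 12 (adjusted p up to 0.027 and 0.024). The normalized counts were 7.35, 11.8 and 17.5 untreated, 2.16, 3.90 and 3.98 with DAC, 18.0, 8.19 and 9.16 under ATRA, and 4.52, 3.16 and 2.47 under the combination. The libraries with DAC lay below all others, but each held only 2 to 5 reads, and the row, which GENCODE 44 does not contain, carries 63.7% of the reads of the symbol. Summed over 18 rows, CHEK1 had 18.7 ± 3.75 untreated, 7.42 ± 3.37 with DAC, 17.2 ± 7.96 under ATRA and 4.94 ± 2.90 under the combination, and the sum passed for the combination (log2 fold change -1.82, adjusted p = 0.00059 in limma) and not with DAC (-1.29, adjusted p = 0.011).

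CLSPN, the adaptor through which ATR activates CHEK1, fell with both treatments that held DAC. From the protein-coding transcript at chr1:35720218-35769967 (minus strand), the counts were 115, 101 and 104 untreated, 70.3, 61.4 and 46.8 with DAC, 99.3, 113 and 102 under ATRA, and 52.4, 31.6 and 63.0 under the combination. No library with DAC reached the lowest library without it. The log2 fold change was -0.85 with DAC and -1.16 with DAC+ATRA (SE 0.21 each, limma adjusted p = 0.0023 and 9.7e-05), and the call with DAC was lost without untreated library 1 or DAC library 6 (adjusted p up to 0.019).

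ATRIP, which brings ATR to single-stranded DNA, had 20.2, 25.5 and 34.2 normalized reads untreated, 20.5, 22.4 and 9.96 with DAC, 11.6, 20.9 and 25.8 under ATRA, and 13.6, 9.47 and 11.1 under the combination. Only the combination was clear of the untreated libraries, with a log2 fold change of -1.14 (SE 0.34, limma adjusted p = 0.0071), against -0.61 with DAC (adjusted p = 0.14). The call was lost in 5 of 12 fits that left out a library (untreated 2 or 3, or any of the combination), with an adjusted p of up to 0.043. The row is a transcript marked for nonsense-mediated decay (chr3:48446846-48467645, plus strand). ATR itself, from its protein-coding transcript, fell by 0.54 on the log2 scale with DAC and by 0.40 with DAC+ATRA (adjusted p = 0.00085 and 0.0073), and the latter call was lost without any 1 of the untreated libraries or DAC+ATRA library 10 or 12 (adjusted p up to 0.052), and without the filter on low values.

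TOPBP1, which activates ATR, stood at 2605 ± 137 normalized reads untreated, 2524 ± 86.9 with DAC, 2959 ± 278 under ATRA and 2632 ± 125 under the combination, and passed in no comparison with untreated cells in the limma fit. ATM, at 9.73 to 32.5 normalized reads per library, had log2 fold changes of -0.60 with DAC and -0.02 with DAC+ATRA (limma adjusted p = 0.12 and 0.97). CHEK2, at 3.71 to 18.3 in a retained intron row, had -0.33 and -0.41, both with an SE of 0.44, which leaves room for changes in either direction.

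**Figure D2:**
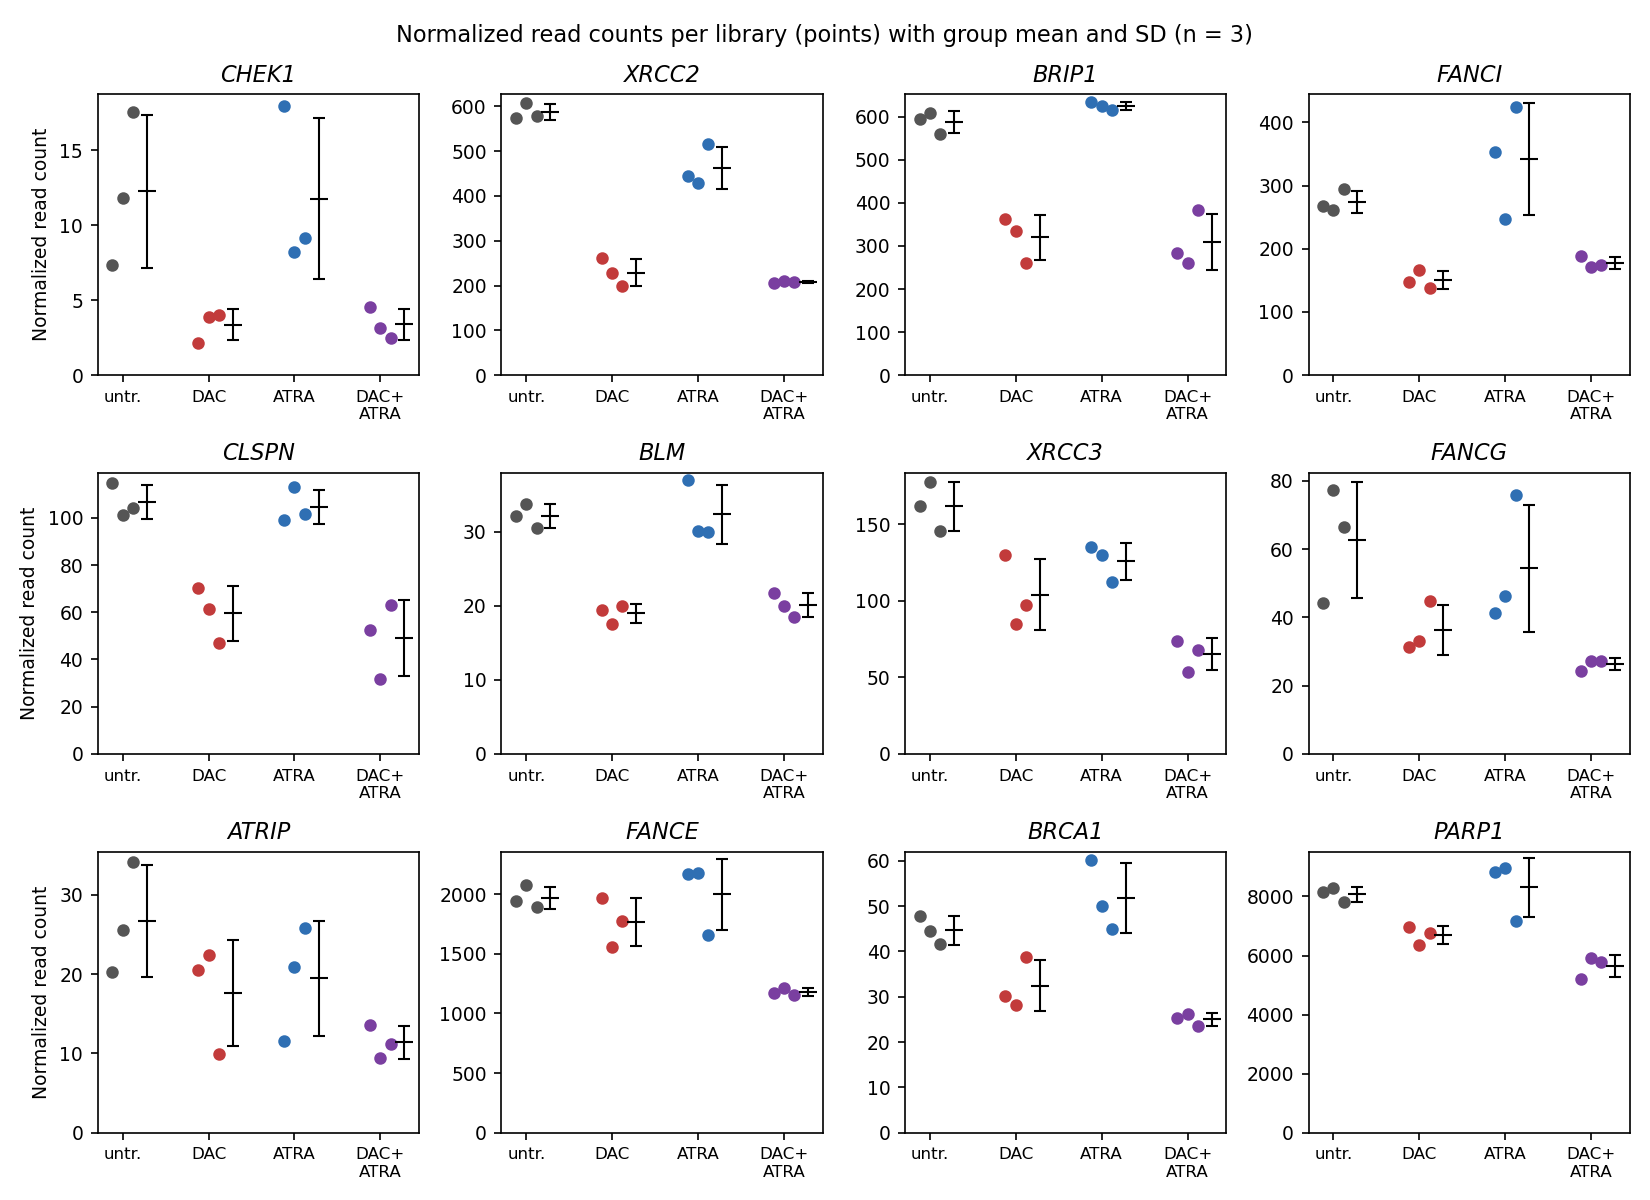
Normalized read count (y axis, linear from 0) of 12 genes in the 12 libraries, by treatment group (x axis), with points for libraries and bars for the group mean and SD (n = 3). XRCC2, BRIP1, FANCI, CLSPN, BLM and CHEK1 are low in the DAC and DAC+ATRA groups alike, whereas FANCE is lowest with DAC+ATRA, at 1152 to 1217.

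Of the helicases that unwind or dissolve joint molecules, BLM, whose protein is lost in Bloom syndrome, fell with DAC. From its protein-coding transcript (chr15:90717346-90816166, plus strand) the counts were 32.2, 33.7 and 30.5 untreated, 19.5, 17.5 and 19.9 with DAC, 37.0, 30.0 and 30.0 under ATRA, and 21.7, 20.0 and 18.5 under the combination. The DAC and DAC+ATRA libraries both lay below all others. The log2 fold changes were close, -0.73 with DAC (SE 0.22, limma adjusted p = 0.0087) and -0.65 with DAC+ATRA (SE 0.22, adjusted p = 0.015), on opposite sides of the threshold. The call with DAC was lost in 10 of the 12 fits that left out a library and in 5 of 13 other settings. WRN, the Werner syndrome helicase, had -0.43 and -0.40 (adjusted p = 0.025 and 0.034), and RMI1, a scaffold of the BLM complex, had -0.12 and -0.29 (adjusted p = 0.56 and 0.14).

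PARP1, which marks strand breaks with poly(ADP-ribose), fell with DAC+ATRA. The counts of its protein-coding transcript (chr1:226360691-226408093, minus strand) were 8137, 8297 and 7797 untreated, 6978, 6366 and 6762 with DAC, 8821, 8955 and 7164 under ATRA, and 5207, 5920.2 and 5789.7 under the combination. Every library of the combination lay below every DAC library, and these below every library without DAC. The combination held 69.8% of the untreated mean (log2 fold change -0.52, SE 0.09, limma adjusted p = 8.4e-05), and DAC 83.0% (-0.27, SE 0.09, adjusted p = 0.022).

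SPRTN, a protease that digests proteins crosslinked to DNA, was the gene of the list with the most positive change with DAC. It had 114 ± 25.7 normalized reads untreated, 163 ± 15.3 with DAC, 120.4 ± 26.9 under ATRA and 146 ± 26.8 under the combination. The log2 fold change of 0.53 with DAC (SE 0.19) and 0.35 with DAC+ATRA did not pass (limma adjusted p = 0.023 and 0.11). XRCC1, the scaffold of single-strand break repair, was too low to test in its row, a retained intron transcript, with at most 4.98 normalized reads.

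Adding ATRA to DAC moved 1 gene of the 27 past the threshold (3.70%). That share was below those of all transcripts, of which 5.23% were lower and 6.03% higher. FANCE was lower with DAC+ATRA than with DAC (log2 fold change -0.57, SE 0.11, limma adjusted p = 0.00080). It passed in each of 13 other settings and with each of the 12 libraries left out (adjusted p up to 0.0097 in the latter). Some of these could hardly fail. A looser threshold reads the same fit. FANCE has only 1 row, so its protein-coding row and its sum over rows hold the same counts. Leaving out an untreated or ATRA library keeps this fold unchanged and alters only its error. XRCC3 had -0.65 (SE 0.17) in the same comparison, just short of the threshold (adjusted p = 0.011). Against ATRA alone, DAC+ATRA lowered 13 of the 27 genes and raised none, with 9.0% of all transcripts lower and 25.8% higher. RAD51C (-0.79, adjusted p = 0.0054, and up to 0.028 without ATRA library 7 or 8 or DAC+ATRA library 11 or 12) was among these 13 and ATR and ATRIP were not, while the other 12 were also lower than in untreated cells. RAD51C was lost as well without the filter on low values and with only the groups compared in the fit. CHEK1 was lost with DESeq2, a pseudocount of 0.1, and without ATRA library 7 or DAC+ATRA library 11 or 12 (adjusted p up to 0.039 in the latter fits), FANCG without ATRA library 9 or DAC+ATRA library 10 (up to 0.027), BRCA2 without the filter or DAC+ATRA library 11 (0.011 in the latter), and FANCI on its protein-coding row (0.041).

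DAC and ATRA as single agents differed in 7 of the 27 genes, FANCI, BRIP1, RAD51D, XRCC2, CHEK1, CLSPN and BLM, all lower with DAC, with 7.51% of all transcripts lower and 25.3% higher. The call of BLM was lost in each of the 12 fits that left out a library and in 5 of 13 other settings. CHEK1 was lost with DESeq2, a pseudocount of 0.1, sums over rows, and without DAC library 4 or ATRA library 7 (adjusted p up to 0.037 in the latter fits), and CLSPN without DAC library 6 or ATRA library 8 (up to 0.027). On their protein-coding rows FANCI (-0.17, adjusted p = 0.79) and XRCC2 (-0.39, adjusted p = 0.41) did not pass. With TMM scaling the count was 15 in edgeR, against 14.2% of all transcripts lower, and 14 in limma, against 13.8%. The interaction asks whether the effect of the combination departs from the sum of the effects of the single agents on the log2 scale. It passed for none of the 27, and for 0.783% of all transcripts above and 1.67% below additivity. At an unadjusted p under 0.05 the limma fit held 4 of the 27 genes (14.8%, against 17% of all transcripts), FANCE (-0.59, adjusted p = 0.034), RAD51C (-0.74, 0.21), ATR (0.37, 0.28) and PARP1 (-0.29, 0.28). For FANCE the interaction passed in DESeq2 (-0.54, adjusted p = 0.0017) and, in limma, without ATRA library 9 (-0.72, adjusted p = 0.00084), and not with edgeR and TMM (-0.50, adjusted p = 0.014).

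The 9 genes too low to test were also read as sums over all rows of their symbol, which brought 6 of them past the filter. FANCM, the translocase that anchors the core complex, had 15.0 ± 2.14 normalized reads untreated, 10.4 ± 5.69 with DAC, 11.4 ± 2.79 under ATRA and 6.05 ± 2.23 under the combination, and passed with DAC+ATRA (log2 fold change -1.22, limma adjusted p = 0.0071). EXO1 (-1.16, adjusted p = 0.020), FANCC (-0.55, 0.13), PALB2 (-0.63, 0.15), NBN (-0.10, 0.82) and RBBP8 (1.15, 0.024) did not pass with DAC+ATRA, and none of the 6 passed with DAC. In the fit of these sums, 1713 of 10240 symbols were lower and 3221 higher with DAC+ATRA, and 1229 and 2981 with DAC. The 1 fall among 6 genes was thus near the share of all symbols. FANCL, XRCC1 and BARD1 stayed below the filter, with sums of at most 10.9, 6.97 and 4.99 normalized reads in any library. How reads shared by several transcripts were counted is not known, so low values here need not mean low expression of the gene.

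Other genes of the same pathways were read from lists made for this comparison, and their counts stand against 30.5% of all transcripts higher and 8.77% lower with DAC, and 32.4% and 14.3% with DAC+ATRA. Of 15 other Fanconi and crosslink genes tested, 2 rose and 1 fell with DAC, and 3 rose and 2 fell with DAC+ATRA. The falls, 6.67% and 13.3%, were near the shares of all transcripts, and the rises, 13.3% and 20.0%, below them. Their median with DAC+ATRA was -0.07. The nuclease DCLRE1A rose from 16.5 ± 6.58 to 43.5 ± 9.89 normalized reads with DAC+ATRA (log2 fold change 1.40, limma adjusted p = 0.00043), and the endonuclease MUS81 fell from 52.3 ± 12.7 to 25.8 ± 5.23 (-0.98, adjusted p = 0.0035).

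Of 23 other homologous recombination genes tested, 8 fell and 1 rose with DAC, and 7 fell and 2 rose with DAC+ATRA, with a median of -0.67 in the latter. The falls made up 34.8% and 30.4%. RECQL4, a helicase of replication origins and breaks, fell from 57.2 ± 3.37 to 15.0 ± 4.33 with DAC+ATRA (-1.89, limma adjusted p = 4.1e-06). SWSAP1, a homologous recombination factor, rose from 404 ± 39.1 to 657 ± 39.6 (0.70, adjusted p = 2.2e-05).

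Of 20 other checkpoint and signalling genes, 4 fell and 1 rose with DAC, and 4 fell and 2 rose with DAC+ATRA, with a median of -0.04. The falls were 20.0% in both. The kinase PKMYT1, which holds CDK1 inactive, fell from 163 ± 10.7 to 55.3 ± 11.8 with DAC+ATRA (-1.56, limma adjusted p = 1.8e-06). The phosphatase CDC25B, which activates CDK1, had 0 reads in all 3 untreated libraries and 19.8 ± 4.89 normalized reads with DAC and 16.0 ± 3.03 with DAC+ATRA, so that it was at least 7.21-fold and at least 5.82-fold higher, against 3 reads per untreated library. Of 7 end joining genes, 1 fell and 1 rose with DAC and 1 fell with DAC+ATRA, the kinase subunit PRKDC, from 623 ± 47.1 to 344 ± 24.7 (-0.85, adjusted p = 1.8e-06).

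Of 16 other genes of single-strand break, base excision and protein crosslink repair, 5 fell and 3 rose with DAC, and 7 fell and 4 rose with DAC+ATRA, with a median of -0.25. The falls were 31.3% and 43.8%, and the rises 18.8% and 25.0%. PARP2 fell from 27.2 ± 6.64 to 9.10 ± 1.26 with DAC+ATRA (-1.46, limma adjusted p = 0.00039). ACRC, a germ cell protein also named GCNA and related to SPRTN, had 0 to 3 reads in untreated libraries and 18.6 ± 3.58 normalized reads with DAC+ATRA. The lists were made with earlier results of these data known, and their counts are a description.

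**Figure D3:**
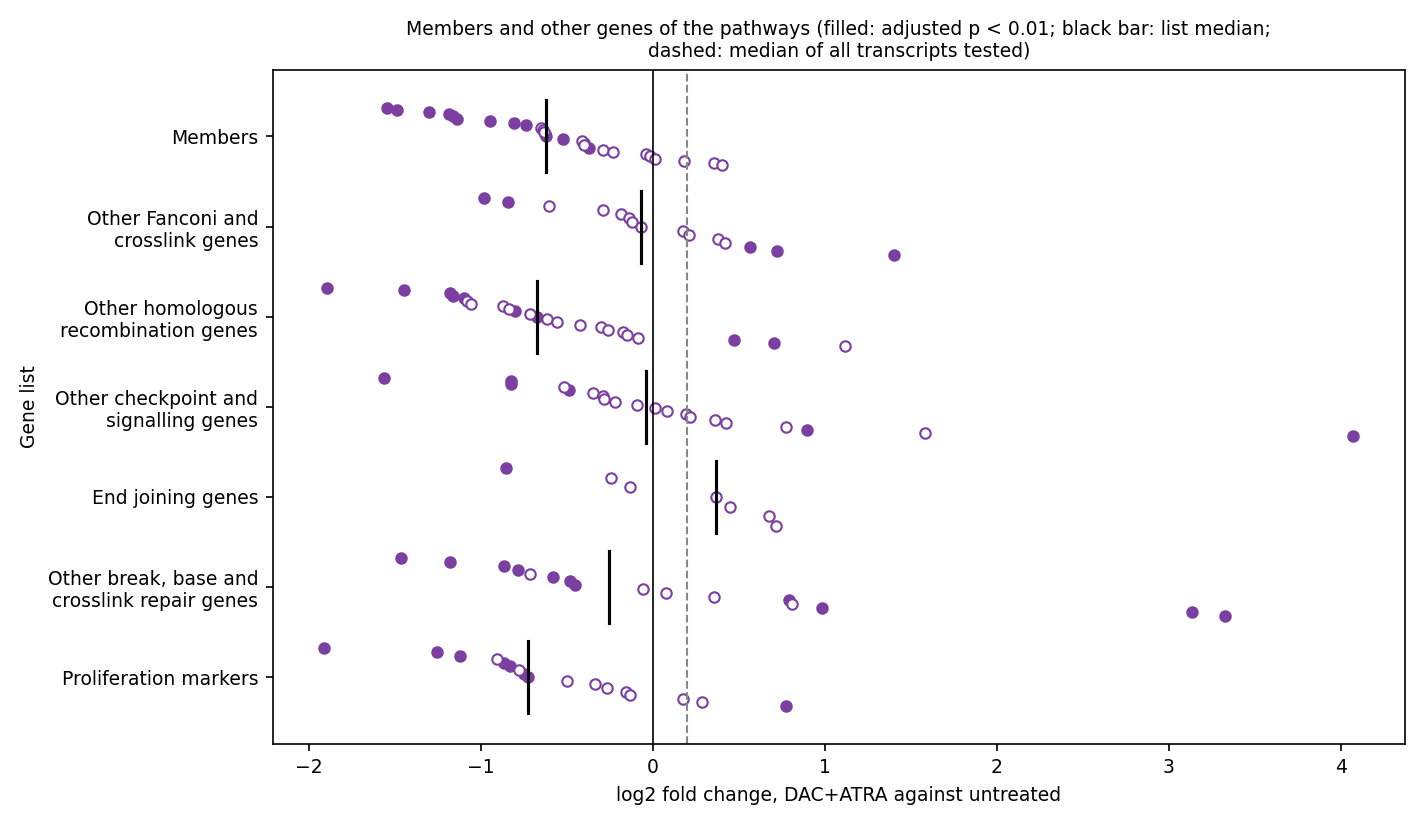
Change of DAC+ATRA cells from untreated ones (x axis, log2 fold change) of the 27 genes and of 6 lists of related genes (y axis), where each point is a gene, filled points passed an adjusted p of 0.01, black bars are list medians and the dashed line is the median of all transcripts tested. The 27 genes (median -0.62), the other homologous recombination genes (-0.67) and the proliferation markers (-0.73) lie mainly left of 0, and the 2 rightmost genes, CDC25B and ACRC, had at most 3 reads in any untreated library, so their plotted fold depends on the pseudocount.

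Of 17 markers of proliferation tested, of 24 listed, 6 fell (35.3%, against 8.77% of all transcripts) and none rose with DAC, and 7 fell (41.2%, against 14.3%) and 1 rose with DAC+ATRA, with medians of -0.40 and -0.73. The other 11 and 9 did not pass, among them MKI67, which had the most positive change with DAC (0.56, limma adjusted p = 0.25). The replicative helicase subunit MCM4 fell from 124 ± 7.27 to 32.7 ± 6.62 normalized reads with DAC+ATRA (-1.91, limma adjusted p = 2.7e-07), and E2F2, an activator of S phase genes, rose from 4437 ± 304 to 7599 ± 624 (0.78, adjusted p = 4.7e-07). The summed level of all 24 ran from 33232 to 35515 normalized reads in untreated libraries, 26661 to 28621 with DAC, 32657 to 38204 under ATRA and 26234 to 30026 under the combination. The part of proliferation in the results for the repair genes was not tested.

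Of 9 myelomonocytic markers tested, of 10 listed, 4 rose and 1 fell under DAC as under the combination, and 2 rose and 1 fell under ATRA, where 30.5%, 32.4% and 6.42% of all transcripts were higher with DAC, DAC+ATRA and ATRA, and 8.77%, 14.3% and 2.66% lower. ITGAM, an integrin of mature myeloid cells, rose from 202 ± 14.0 normalized reads to 856 ± 16.4 with DAC, 1002 ± 74.3 under ATRA and 2725 ± 110 under the combination, whereas MPO, an enzyme of granules made early in the lineage, fell from 52120 ± 3077 to 26664 ± 6204, 33033 ± 5970 and 14973 ± 676. The summed level of the 10 ran from 61064 to 68326 in untreated libraries, 38908 to 56356 with DAC, 41298 to 59188 under ATRA and 35853 to 38589 under the combination. COL1A1, a fibroblast marker, was the 1 marker of other cell types past the threshold, of 3 tested of 10 listed (33.3%, against 30.5% of all transcripts higher with DAC), at 18.4 ± 4.12 untreated, 225 ± 27.1 with DAC, 47.1 ± 2.59 under ATRA and 135 ± 17.7 under the combination. The summed level of those 10 markers was 365 to 447 untreated, 579 to 651 with DAC, 323 to 416 under ATRA and 477 to 549.9 under the combination. The part of either list in the results for the repair genes was not tested.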

How the data were processed

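The 12 RNA-seq libraries of U937 cells, 3 per group, were grouped by the labels and, in the table, by the treatment named in each column. Per the paper's methods, the authors aligned reads of rRNA-depleted, strand-specific libraries by STAR to hg38, used htseq-count for counting and DESeq2 for testing, and the deposited table holds 1 row per transcript. Tool versions, annotation release, counting mode and strand setting are not given in the sources used here. The deposited values are signal, that is read counts divided by a size factor per library, and 100% of them were whole multiples of a single read (tolerance 0.1 of a read). Depth was 8042435 to 10683593 reads, and counts of a few reads give imprecise folds.

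Protein-coding transcripts (GENCODE 44, or by symbol where unmatched) that reached 10 normalized reads in 3 or more libraries entered the fit (9016), with 48 further rows that represent listed genes. The test was limma 3.58.1 under R 4.3.3 (eBayes with trend and robust), fitted once to all 12 libraries on log2(normalized count + 1), and p-values were adjusted by Benjamini-Hochberg over 9064 transcripts. The threshold was an adjusted p under 0.01, and log2 fold changes, which understate the change of low genes, are on this scale. Every adjusted p without a tool named is from limma, in this fit or, for values given as sums over the rows of a symbol, in a fit over 10240 symbols. The plan named edgeR for raw counts and limma for normalized values, and the latter applied.

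Alternatives on the recovered reads were edgeR 4.0.16 and DESeq2 1.42.0, and with limma other scalings, a pseudocount of 0.1, other filters, sums per symbol, a threshold of 0.05 and leaving out each library. Chosen after the data were seen were edgeR with the deposited size factors and use of each gene's most abundant protein-coding transcript. Of the list, values per library are given for the 6 largest falls past the threshold with DAC and with DAC+ATRA, for genes past it in the other comparisons (at most 6 each) and for the highest and lowest level per length; from each related list, the called genes with the largest and smallest log2 fold change with DAC+ATRA are named. COL1A1 and the other genes described were added after their values were seen. The members and lists were chosen with earlier results of these data known. The fits were also run on simulated reads in which a small part of the transcripts was changed in both directions. That setting has no broad shift between groups, so it does not bear on the scaling of the real libraries. Tables and plots used Python 3.11.15, numpy 2.4.6, pandas 2.3.3 and matplotlib 3.10.9.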

Additional observations from a re-analysis of the deposited data

How the results depend on the processing

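No paired analysis was possible because the columns of the table are numbered 1 to 12 and do not carry the replicate numbers of the labels. In the comparisons with untreated cells, no alternative reversed the direction of a named gene that was called in either fit. There, 824 of 888 fold changes of named genes kept their side of the threshold. Many of the 888 hold an unchanged fold by construction. This is so at the threshold of 0.05, where the protein-coding row is the row read, and where the library left out is of another group. Of 90 counts of called genes under another setting, 75 stayed within 1.5 times the reported count. With DAC against untreated (9 genes), the count was 14 with edgeR and TMM and 15 with limma on TMM-scaled reads. With DAC+ATRA against DAC (1 gene, FANCE), it was 3 with reads scaled by library total, where PARP1 and XRCC3 were added, and 2, with XRCC3, under a filter of at least 10 in every library, over all transcripts of any biotype, with sums per symbol and at an adjusted p under 0.05. The transcripts called lower there went from 474 to 640 of 9064 with scaling by library total, and the sums held 584 of 10240 symbols lower. With DAC against ATRA (7 genes), it was 15 with edgeR and TMM, 12 with DESeq2, 11 with scaling by library total, 14 with limma and TMM, 11 with sums per symbol and 11 at 0.05, while the transcripts called lower went from 681 to 1285, 1156, 902 and 1248 of 9064 in the first 4. With sums per symbol, 985 of 10240 symbols were lower in this comparison. The interaction (0 genes) held 1 gene, FANCE, with DESeq2 and at 0.05. Genes were called higher in 2 of the 90 counts, SPRTN with DAC and FANCF with DAC+ATRA, both at 0.05, and in 1 fit that left out a library, SPRTN with DAC without untreated library 1. Over all transcripts, edgeR with TMM called 2296 higher and 1606 lower with DAC, against 2767 and 795 in the limma fit, and limma on TMM-scaled reads called 2297 and 1578, so the scaling with the tool unchanged moved the counts alike.

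Leaving out 1 library at a time gave 6 to 11 genes with DAC, 0 with ATRA, 9 to 14 with DAC+ATRA, 1 to 3 against DAC, 10 to 13 against ATRA, 5 to 8 for DAC against ATRA and 0 to 1 for the interaction. The counts over all transcripts in these fits are not given here, so whether the background moved alike is not known. The count of 9 with DAC+ATRA came without untreated library 2 (ATR, ATRIP, BRCA2, CHEK1 and RAD51D lost) or 3 (ATR, ATRIP, CHEK1, FANCI and RAD51D lost). The count of 6 with DAC came without untreated library 2 or DAC library 6. Against DAC, the count was 2 without DAC library 5 and 3 without ATRA library 9, and without the latter the interaction held FANCE. XRCC2, BRIP1, RAD51D, ATR and FANCI passed with DAC in all 12 such fits. Using the protein-coding transcript in place of the listed row gave 6 genes with DAC, without FANCI, XRCC2 and XRCC3, and 12 with DAC+ATRA, over 24 genes in place of 27, since ATRIP and FANCG, called before, had no protein-coding row in the fit and were not tested. Depth limits CHEK1, NBN and the other genes with fewer than 20 reads in every library.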
